A study of Mus musculus with 16 samples.

Results

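The RNAs described here are the long transcripts Malat1, Meg3, Rian, Mirg, Neat1, Miat, Snhg11, Snhg14, Rmst and Peg13, that is, 10 of the 55404 genes in the table. They were chosen by name as abundant nuclear non-coding RNAs that vary between mice in total RNA libraries, so their level and their spread are given as a description with no test. All 10 were among the 23244 genes that passed the filter on low values, a sum above 16 and more than 5 in at least 4 mice of a genotype. Each gene has a normalized value per mouse, which the authors scaled between mice and gave as a whole number, and the depth implied by its steps was 9.23 to 15.39 megareads on genes. The samples were whole brains of 16 untreated mice of 5 months, males on a C57BL/6J background per the study's methods. In 8 of them, both copies of Tecpr2 carried the frameshift allele L1152fs (ki/ki), introduced into zygotes with Cas9, and the other 8 were wild type (wt/wt). Every cell of the ki/ki mice carries the allele from the zygote on, and whole brain RNA mixes all cell types and regions. Fewer cells of a type and less RNA per cell therefore cannot be told apart in these values.

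These RNAs are retained in the nucleus or made in long transcription units that are processed there, and several are known from brain. Malat1 accumulates in nuclear speckles, the sites where splicing factors are stored, and Neat1 is the scaffold of paraspeckles. RNase P cuts Malat1 and the longest Neat1 transcript from their primary transcripts and releases a tRNA-like RNA. The end that is left is protected by a triple helix rather than by a poly(A) tail. Meg3, Rian and Mirg are expressed from the maternal chromosome of the imprinted Dlk1-Dio3 domain and host clusters of snoRNAs and miRNAs. Snhg14 is the long paternal transcript of the Prader-Willi and Angelman region, which hosts snoRNA arrays and runs antisense through Ube3a. Peg13 is a paternally expressed RNA from an intron of Trappc9, Miat (also called Gomafu) forms its own nuclear dots in neurons, Rmst is a developmental lncRNA that binds Sox2, and Snhg11 is a snoRNA host that is abundant in neurons.

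The 3′ ends of Malat1 and of the longest Neat1 transcript hold the letters that pair into the triple helix. They are shown because they set these 2 transcripts apart from polyadenylated ones. In GENCODE M21 (build GRCm38), the Malat1 stretch lies in the single exon of Malat1-201, at chr19:5795967-5796071 on the minus strand. The Neat1 stretch is the last part of the single exon of Neat1-201, at chr19:5824708-5824803 on the minus strand. The capitals mark the first U-rich motif TTTCTTTT, the second U-rich motif TTTTGCTTTT and the A-rich tract AAAAGCAAAA, and the Malat1 line ends with the first bases of its tRNA-like product:
Malat1: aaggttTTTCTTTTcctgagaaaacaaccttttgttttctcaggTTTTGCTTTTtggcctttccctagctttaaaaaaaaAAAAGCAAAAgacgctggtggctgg
Neat1: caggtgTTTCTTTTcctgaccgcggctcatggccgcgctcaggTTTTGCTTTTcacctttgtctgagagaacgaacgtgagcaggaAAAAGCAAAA
On the sense strand of 141767 annotated transcripts, these 3 motifs stood in this order, with at most 120 bases between the first and the second and at most 60 between the second and the A-rich tract, in 2 transcripts, Malat1-201 and Neat1-201. The match is a description of letters, and no read position was available to show where the RNAs ended in these mice.

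Miat carries copies of ACTAAC, which resembles the branch point sequence that the splicing factor SF1 binds. The longest Miat transcript, Miat-205 of 9163 bases, held 11 copies on its sense strand, while the median over the 68537 annotated transcripts of at least 1000 bases was 0. As many copies or more were found in 13 of these transcripts, Miat-205 among them, from 9 genes. These counts were not scaled by length. The densest cluster holds 4 copies and lies in exon 7 of 7, at chr5:112217314-112217454 (GRCm38, minus strand), with the copies in capitals:
Miat: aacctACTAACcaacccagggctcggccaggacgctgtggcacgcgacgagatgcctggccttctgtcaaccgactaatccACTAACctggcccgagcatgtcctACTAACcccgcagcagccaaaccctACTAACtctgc
Among the other RNAs, the transcript richest in ACTAAC held 4 copies for Neat1, 2 for Mirg, 1 each for Rmst, Rian, Snhg14, Snhg11 and Meg3, and 0 for Malat1 and Peg13. Per kb, the Rmst transcript of 792 bases, at 1.263, was level with Miat-201 of 8758 bases, at 1.256.

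Per kilobase of exon, Malat1 stood far above the others, with a normalized value per kb of 14763 ± 1035 (SD, n = 16). Meg3 followed at 1758 ± 122 and Snhg11 at 1685 ± 70.6, and the ranges of these 2 over the 16 mice overlapped. Snhg14 lay at 855 ± 47.5, Peg13 at 585 ± 12.8, Rian at 503 ± 19.5 and Miat at 229 ± 12.0 per kb, each without overlap with its neighbours in this order. At the lower end were Neat1 at 77.8 ± 5.66, Mirg at 70.7 ± 5.04 and Rmst at 49.4 ± 3.20 per kb, and the ranges of Neat1 and Mirg overlapped. The order depends on the length used: divided by the longest annotated transcript instead of all exons together, Malat1 stayed first, followed by Snhg14 at 3250, Snhg11 at 2449, Meg3 at 2185, Rian at 1134 and Peg13 at 585 per kb. Miat at 232, Mirg at 135, Rmst at 127 and Neat1 at 77.8 per kb then formed the lower end. The reads were aligned to GRCm39, whereas all lengths here come from GENCODE M21 (GRCm38), so counted and measured exons may differ. Together the 10 RNAs made up between 1.38% and 1.68% of the summed normalized values of a mouse.

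**Figure D1:**
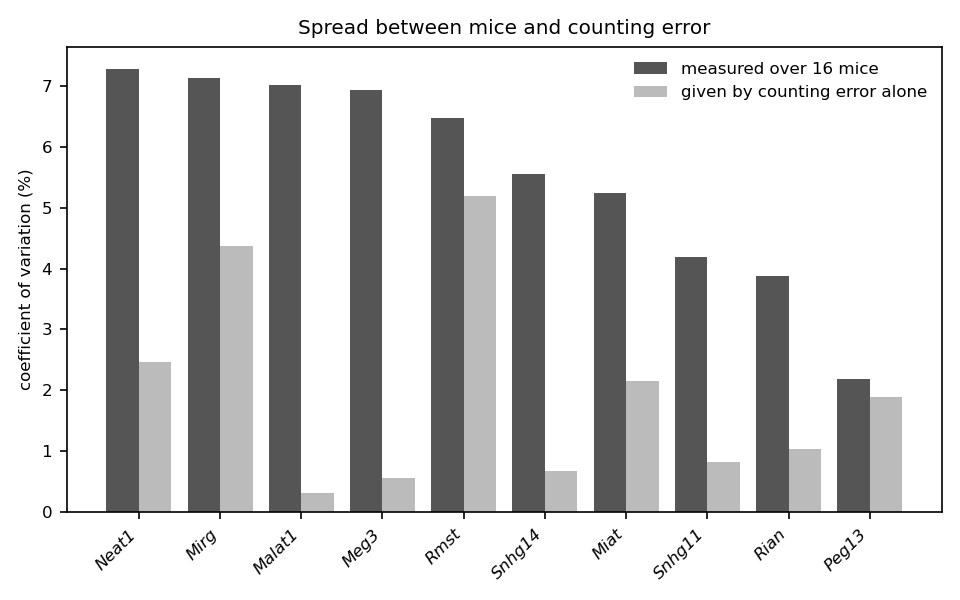
Coefficient of variation (percent, y axis) of each RNA over the 16 mice (dark bars) beside the value that counting error alone would give at the estimated depth (light bars). Neat1, at 7.27%, has the tallest dark bar. The 2 bars are closest in height for Peg13 (2.18% dark, 1.89% light) and Rmst (6.48% dark, 5.19% light).

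The spread between mice differed among the 10 RNAs. The coefficient of variation over the 16 mice was 7.27% for Neat1, 7.13% for Mirg, 7.01% for Malat1, 6.92% for Meg3 and 6.48% for Rmst. It was 5.55% for Snhg14, 5.23% for Miat, 4.19% for Snhg11, 3.87% for Rian and 2.18% for Peg13. Counting error alone, from the depth estimated for each library, would give 0.310% for Malat1 and 0.557% for Meg3, so that nearly all of their spread lay beyond it. For Rmst it would give 5.19%, for Mirg 4.38% and for Peg13 1.89%, which is most of the spread measured for Rmst and Peg13. Beside the 100 tested genes with the nearest mean value, Neat1 varied more than 98, Malat1 more than 96 and Meg3 more than 95. Rian varied more than 91 and Rmst more than 64 of their neighbours, while Peg13 varied more than only 14 of its own. Few genes reach the values of Malat1 and Meg3, so their neighbours in value span a wide range, from 9057 to 357167 for Malat1. Peg13 thus did not have the large spread for which the group was named, and Neat1, Mirg and Rmst had the lowest levels per kb by either length. For Neat1 both lengths are the same 20771 bases, so they could not give different levels. Reads of the shorter of its 4 annotated transcripts were divided by this full length too, which understates their level. The nuclear location could not be checked in whole tissue RNA, and in GENCODE M21 Snhg11 is listed as protein coding, although it is known as a non-coding snoRNA host.

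The ki/ki and wt/wt brains were compared to ask whether these RNAs differ with the Tecpr2 genotype. Tecpr2 itself, the edited gene, lay between 274 and 320 in ki/ki and between 928 and 1002 in wt/wt mice, so the labels hold for each of the 16 libraries. None of the 10 RNAs passed the test at an adjusted p under 0.1 (0 of 10 called by limma on log2(value + 1), adjusted by Benjamini-Hochberg over all tested genes), where 31 of 23244 tested genes did, a background of 0.133% called (0.0946% higher and 0.0387% lower in ki/ki). At an unadjusted p under 0.05 the count was also 0 of 10, beside a background of 6.08%. The fitted log2 fold changes, ki/ki against wt/wt, lay between -0.01 and 0.07, with a median of 0.03 beside a median of -0.00098 over all tested genes. In every one of the 10 RNAs the ki/ki and wt/wt values overlapped, where 0.086% of all tested genes did not overlap.

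**Figure D2:**
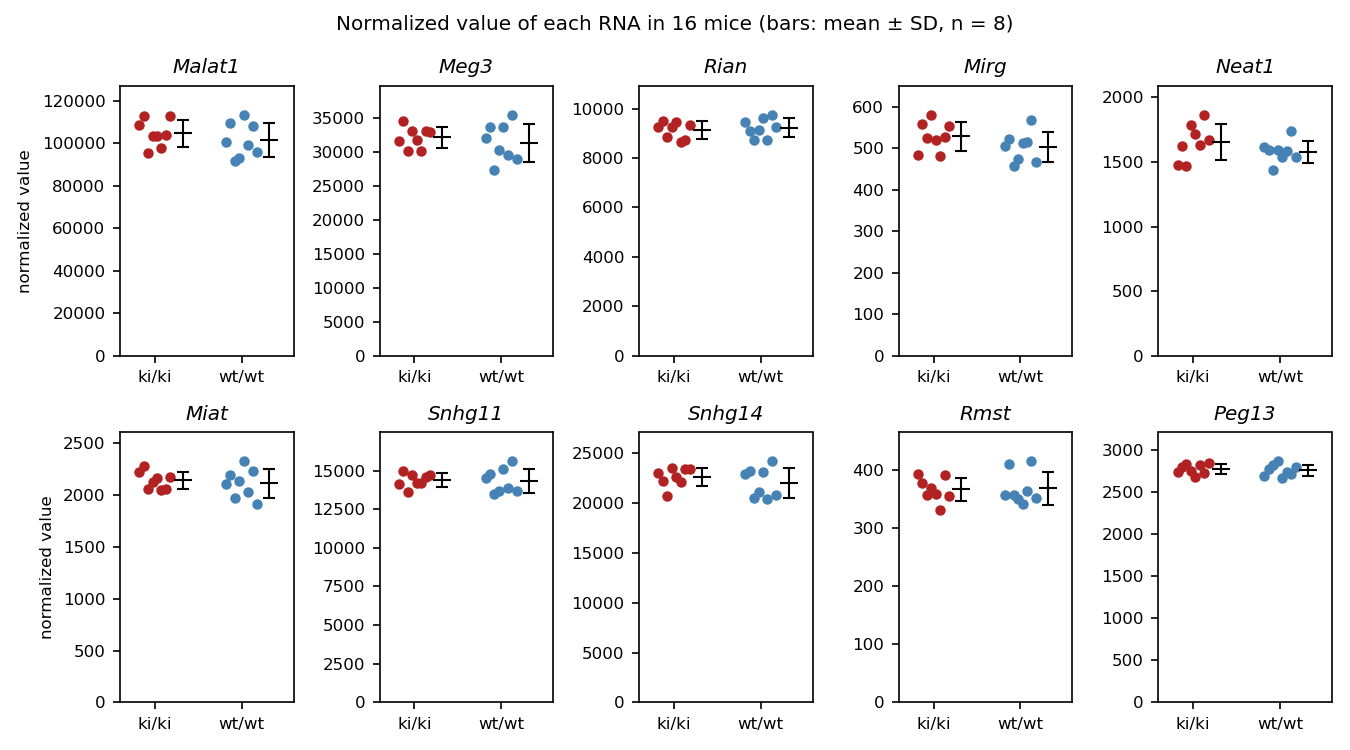
Normalized value (y axis, linear from 0) of each of the 10 RNAs in the 8 ki/ki (red) and 8 wt/wt (blue) mice, with the mean and SD of each genotype as black bars. The red and blue points overlap in all 10 panels, for example for Malat1 between 95477 and 112853 in ki/ki and between 91552 and 113299 in wt/wt mice.

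Malat1, the speckle RNA, had normalized values from 95477 over a median of 103800.5 to 112853 in ki/ki mice. In wt/wt mice they ran from 91552 over 99836.5 to 113299, so both the lowest and the highest mouse were wt/wt. On the log2 scale ki/ki differed by 0.05 (SE 0.05, 95% interval -0.06 to 0.16, adjusted p = 0.933, limma). Neat1, the scaffold of paraspeckles, ran from 1469 over 1648 to 1864 in ki/ki and from 1437 over 1588.5 to 1742 in wt/wt mice. The ki/ki replicates 4 and 7, at 1788 and 1864, lay above all wt/wt mice. On the log2 scale the difference was 0.06 (SE 0.05, interval -0.04 to 0.17, adjusted p = 0.903, limma), and it lay between 0.04, without ki/ki replicate 7, and 0.09, without ki/ki replicate 3, when single mice were left out.

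Of the maternally expressed RNAs on chromosome 12, Meg3 ran from 30123 over 32373 to 34555 in ki/ki mice and from 27423 over 31152 to 35493 in wt/wt mice. Again the extremes were both wt/wt, replicates 3 and 7, and the SD was 1542 in ki/ki and 2764 in wt/wt mice. The fitted difference was 0.04 (SE 0.05, interval -0.07 to 0.15, adjusted p = 0.955, limma), with 0.01 without wt/wt replicate 3 and 0.07 without wt/wt replicate 7. Rian, the snoRNA and miRNA host next to Meg3, lay between 8628 and 9516 (median 9263) in ki/ki and between 8719 and 9742 (median 9193.5) in wt/wt mice, and its interval was -0.07 to 0.05. Mirg, which hosts the largest miRNA cluster of the domain, ran from 481 over 526 to 580 in ki/ki and from 458 over 509 to 568 in wt/wt mice. It had the smallest p of the 10: its log2 fold change was 0.07 (SE 0.04, interval -0.01 to 0.16, adjusted p = 0.877, limma), and the exact two-sided permutation test gave p = 0.168. The Meg3, Rian and Mirg genes end between 1139804 and 1317538 bases before the start of Tecpr2 (GRCm38), on the chromosome that carries the edited allele.

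Snhg14, the paternal transcript of the Prader-Willi region, ran from 20635 over 22797 to 23440 in ki/ki and from 20349 over 21999 to 24149 in wt/wt mice. The fitted difference was 0.04 (SE 0.04, interval -0.05 to 0.13, adjusted p = 0.933, limma). The M21 model of Snhg14 is split into short transcripts and overlaps Ube3a on the other strand, and the libraries were stranded. Peg13 was the steadiest of the 10, from 2684 over 2774.5 to 2843 in ki/ki and from 2664 over 2756.5 to 2864 in wt/wt mice. With an interval of -0.03 to 0.05 around 0.01 on the log2 scale it also had the tightest bound on a genotype difference. Peg13 lies inside Trappc9 on the same strand, so intronic reads of Trappc9 precursor RNA that fall on Peg13 cannot be told apart from it.

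Miat ran from 2050 over 2148 to 2277 in ki/ki and from 1915 over 2122 to 2325 in wt/wt mice, with a log2 fold change of 0.02 (interval -0.05 to 0.09). Snhg11 lay between 13637 and 14998 (median 14381) in ki/ki and between 13490 and 15590 (median 14186.5) in wt/wt mice, and its interval was -0.06 to 0.07. Rmst, the developmental lncRNA, lay between 331 and 392 (median 363) in ki/ki and between 340 and 414 (median 357) in wt/wt mice. Its interval was -0.10 to 0.09. The fitted differences of Snhg11 (0.01) and Rmst (-0.01) were so close to 0 that their sign turned when single mice were left out. The widest upper bound among the 10, that of Neat1, was a 1.13-fold higher level in ki/ki, and the lowest lower bound, that of Rmst, a 0.935-fold level.

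**Figure D3:**
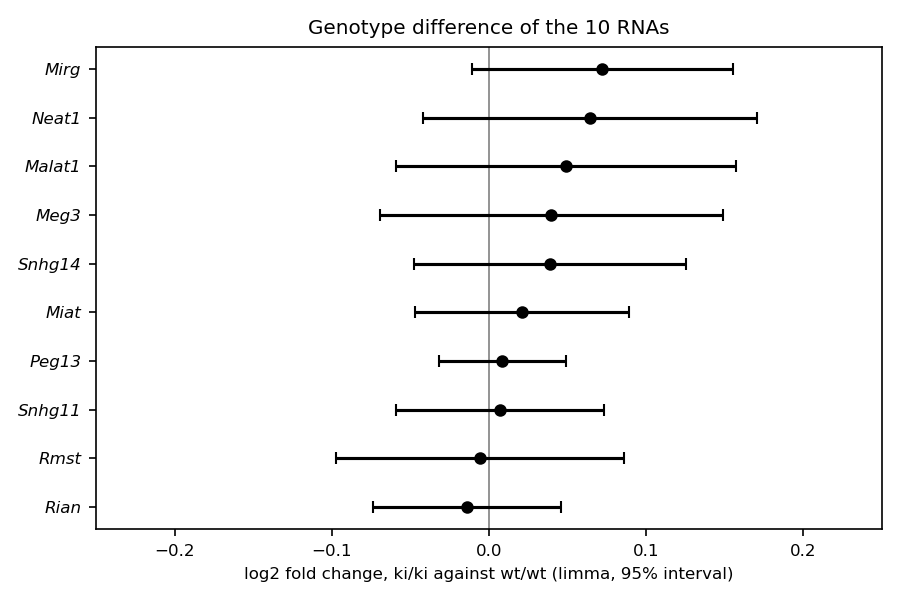
Log2 fold change of each RNA, ki/ki against wt/wt (x axis), with the 95% interval of the limma fit as a bar and the RNAs in rows. All 10 bars cross 0, and they lie between -0.10 and 0.17.

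The RNAs inside these transcription units were looked at next, since Meg3, Rian, Mirg and Rmst are processed into miRNAs and Rian and Snhg14 into snoRNAs. Of the 21 miRNA hairpins within these 4 genes that have a row in the table, 7 passed the filter on low values: Mir341 and Mir1188 in Rian, Mir453, Mir154, Mir496a and Mir541 in Mirg, and Mir135a-2 in Rmst. Libraries read as pairs of 100 bases do not measure mature miRNAs, so these rows hold reads of the host transcript or the precursor over the hairpin. The mature sequences of the 4 hairpins with the highest values are shown to give what these units encode, from RefSeq (GRCm38.p6), with the seed (bases 2 to 8) in capitals:
miR-341-5p: cGGUCGGCcgaucgcucgguc
miR-341-3p: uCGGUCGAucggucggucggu
miR-1188-5p: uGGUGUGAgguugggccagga
miR-1188-3p: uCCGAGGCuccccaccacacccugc
miR-541-5p: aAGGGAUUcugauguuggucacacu
miR-541-3p: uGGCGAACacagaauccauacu
miR-453: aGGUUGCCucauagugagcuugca
The seed of miR-453 was shared by miR-496a-5p, which is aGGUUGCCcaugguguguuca, and no other seed occurred more than once among the 39 mature miRNAs of Meg3, Rian, Mirg and Rmst.

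Mir341 lay between 27 and 60 and Mir1188 between 32 and 56 over the 16 mice, with means of 43.8 ± 7.44 and 43.5 ± 6.35 (SD, n = 8) in ki/ki and 43.6 ± 11.5 and 41.3 ± 5.80 in wt/wt mice. Their log2 fold changes were 0.03 (SE 0.13) and 0.07 (SE 0.12), and neither passed the test. Their deviations from the genotype means went with those of Rian, with r = 0.734 for Mir341 and 0.571 for Mir1188 over the 16 mice, a description of rows that lie in the same unit. Over all tested hairpin and snoRNA rows the r with the host ran from -0.422, for Mir154 with Mirg, to this value of Mir341, and it was -0.101 for Mir135a-2 with Rmst. Means of the Mirg hairpins were 10.4 for Mir541 and 9.50 for Mir453, and no hairpin or snoRNA row within these genes passed the test.

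**Figure D4:**
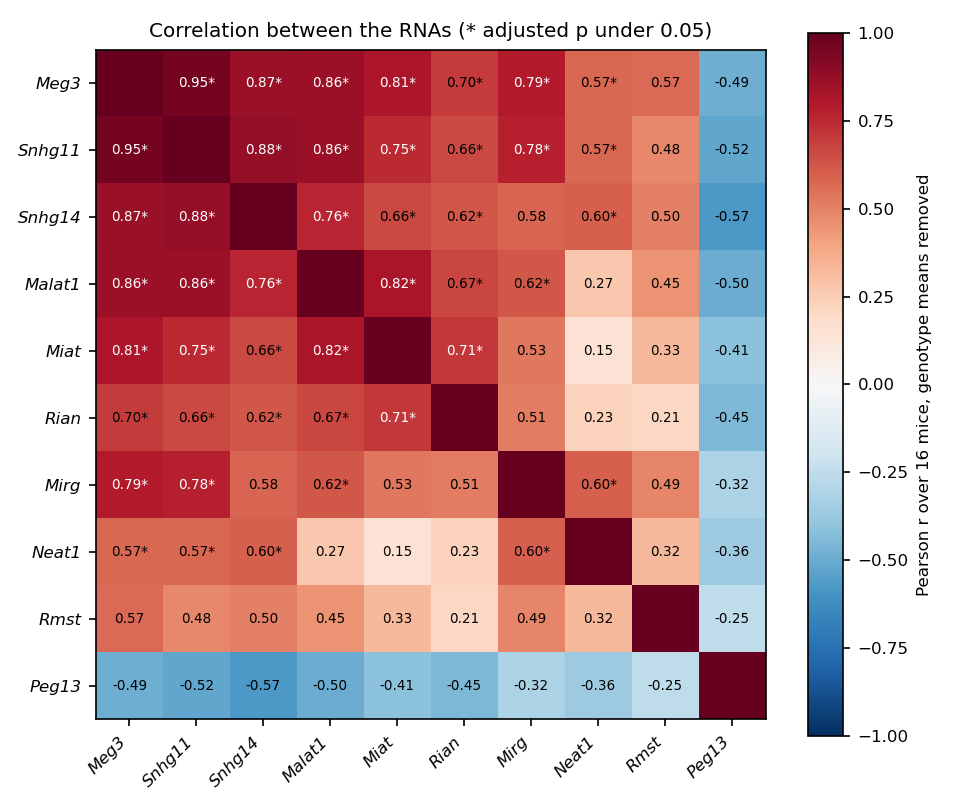
Pearson r between the RNAs over 16 mice after the genotype means were removed, with red for positive and blue for negative values and a star where the adjusted permutation p is under 0.05. The first 9 rows are red, up to 0.95 for Meg3 with Snhg11, and the row of Peg13 is blue, between -0.57 and -0.25.

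Whereas none passed the test of genotype, the RNAs varied together from mouse to mouse. After the genotype means were removed, all 36 pairs among the 9 RNAs other than Peg13 had a positive Pearson r over the 16 mice (median 0.609, from 0.145 to 0.954). Of all 45 pairs, 22 passed an adjusted permutation p under 0.05 with Pearson's r and 16 with Spearman's rho, and all of these were pairs without Peg13. The count for Pearson's r rests in part on the 2 wt/wt mice at the ends of the range: 12 pairs passed without wt/wt replicate 3 and 12 without wt/wt replicate 7. Within ki/ki mice 34 of the 36 pairs were positive (median r = 0.501) and within wt/wt mice 36 of 36 (median r = 0.765). The difference between these medians was not tested. All values of a mouse share its library and its scaling, and the RNAs had been chosen for their spread. The share of other gene pairs that would pass was not computed, so the count of called pairs has no background here.

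The closest pair was Meg3 and Snhg11, which lie on chromosomes 12 and 2, with r = 0.954 (permutation p = 1e-05, the smallest that the permutations can give, adjusted p = 0.00045) and rho = 0.947 (permutation p = 2e-05, adjusted p = 0.0009). The r was 0.923 within ki/ki and 0.964 within wt/wt mice, and 0.938 without the 2 mice farthest from the median of Meg3. Snhg14 went with Snhg11 at r = 0.878 (adjusted permutation p = 0.00171; rho = 0.853, adjusted permutation p = 0.00495) and with Meg3 at r = 0.866 (adjusted permutation p = 0.00171; rho = 0.876, adjusted permutation p = 0.00225). For Snhg14 with Meg3 the r was 0.613 within ki/ki and 0.956 within wt/wt mice. Malat1 went with Snhg11 at r = 0.859, with Meg3 at r = 0.858 and with Miat at r = 0.815, with permutation p of 0.00014, 0.00017 and 0.00048 (adjusted 0.00171, 0.00171 and 0.00309). Its rho with the same RNAs was 0.894, 0.865 and 0.794, with permutation p of 6e-05, 0.0002 and 0.00088 (adjusted 0.00135, 0.00225 and 0.00495). Meg3, Snhg11, Snhg14, Malat1 and Miat lie on chromosomes 12, 2, 7, 19 and 5.

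Within the Dlk1-Dio3 domain, Meg3 went with Mirg at r = 0.790 (rho = 0.788, adjusted permutation p = 0.00309 and 0.00432) and with Rian at r = 0.699 (rho = 0.688, adjusted permutation p = 0.0159 and 0.0229). Rian and Mirg, which follow each other on the same strand, had r = 0.513 (adjusted permutation p = 0.0906; rho = 0.576, adjusted permutation p = 0.0559), below the r of Meg3 with the unlinked Snhg11. Malat1 and Neat1, which are neighbours on chromosome 19, had r = 0.273 (adjusted permutation p = 0.322; rho = 0.219, adjusted permutation p = 0.427), and their correlation was 0.150 within ki/ki and 0.453 within wt/wt mice. Neat1 passed with 4 of the other 8 RNAs, Meg3, Snhg11, Snhg14 and Mirg, at r between 0.570 and 0.601. With Spearman's rho none of these 4 passed (adjusted permutation p = 0.0692, 0.114, 0.0559 and 0.114), and with a single mouse left out the call was lost in 3 of the fits for Meg3, Snhg11 and Snhg14 each and in 5 for Mirg. Rmst passed with none of 8, and its r lay between 0.208 and 0.565.

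Peg13 had values of the other sign. Its r was negative with each of the other 9 RNAs, from -0.574 with Snhg14 to -0.253 with Rmst, but 0 of these 9 pairs passed the adjusted permutation p, and 1 of 9, that with Snhg14, had an unadjusted permutation p under 0.05 (p = 0.0324, adjusted p = 0.0607). In wt/wt mice all 9 values were negative and in ki/ki mice 8 of 9. Counting error alone would give 1.89% of spread for Peg13, whose measured spread was 2.18%.

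The same mice carried the shared rise and fall. In wt/wt replicate 7, all 9 RNAs other than Peg13 lay above their genotype mean, and their mean deviation was 0.13 on the log2 scale. In wt/wt replicate 3, ki/ki replicate 3 and ki/ki replicate 6, all 9 lay below it, with mean deviations of -0.11, -0.08 and -0.08. In wt/wt replicate 8, 8 of 9 lay below, and in wt/wt replicate 2 and ki/ki replicate 8, 8 of 9 lay above. High and low mice thus occurred in both genotypes.

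**Figure D5:**
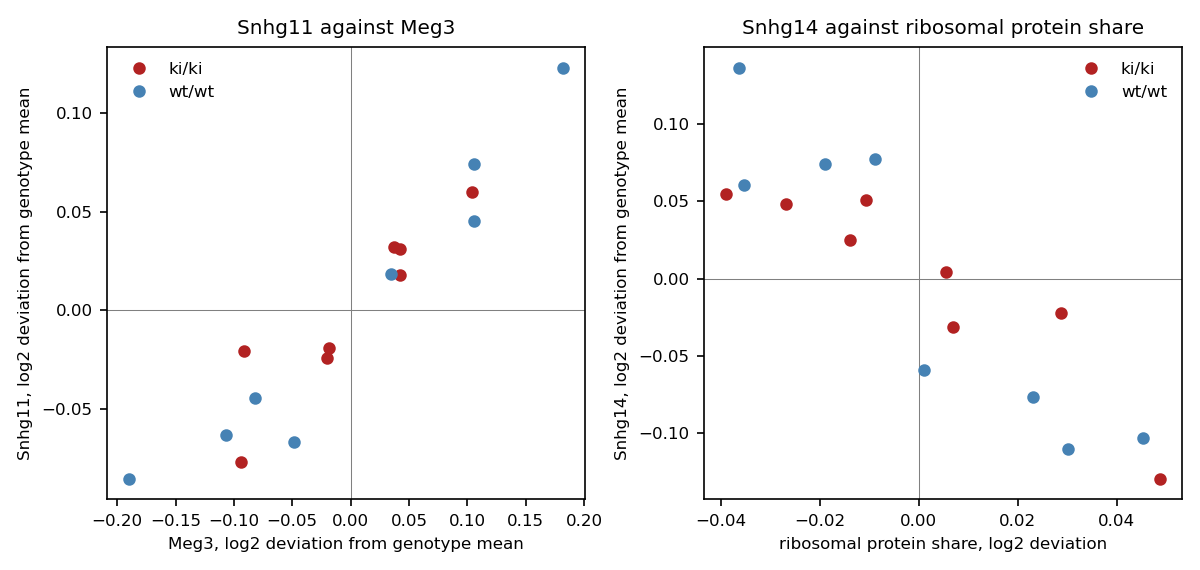
Left, log2 deviation of Snhg11 from its genotype mean (y axis) against that of Meg3 (x axis); right, that of Snhg14 against the log2 deviation of the summed share of ribosomal protein genes. Each point is a mouse, red for ki/ki and blue for wt/wt, and both colours follow a rising line on the left (r = 0.954) and a falling line on the right (r = -0.901).

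Measures of the libraries were set beside these values. Over the 80 pairs of the 10 RNAs with the share of mitochondrially encoded genes, 5 cell type marker lists, 76 ribosomal protein genes and the depth factor, 1 pair passed an adjusted permutation p under 0.05. Snhg14 fell where the share of ribosomal protein genes was high, with r = -0.815 (permutation p = 0.00014, adjusted p = 0.0112) and rho = -0.841 (permutation p = 0.00013, adjusted p = 0.0104). The r was -0.918 within ki/ki and -0.918 within wt/wt mice, -0.901 with the genotype means removed, and -0.728 without the 2 mice farthest from the median share. That share was 0.508% ± 0.0102 of a mouse's total in ki/ki and 0.505% ± 0.0107 in wt/wt mice (SD, n = 8). Over the 10 RNAs the r with this share ran from -0.815 to 0.477 (median -0.502), and only that of Peg13 was positive. Snhg11 (r = -0.670) and Meg3 (r = -0.633) came next, both with an adjusted permutation p of 0.138. Ribosomal protein mRNAs are short, stable and cytoplasmic, whereas these RNAs are long and nuclear, and the part of the ribosomal protein share in the values of Snhg14 was not tested. The depth factor passed with none of the 10 (r between -0.228 and 0.168). The mitochondrial share did not pass either, with r from -0.498 for Neat1 to 0.489 for Peg13 (permutation p = 0.0496 and 0.0542, adjusted p = 0.255 for both).

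Markers of astrocytes and microglia moved with genotype, and their part in the values of the 10 RNAs was not tested. The 10 astrocyte markers summed to between 0.658% and 0.676% of the total in ki/ki and between 0.622% and 0.649% in wt/wt mice, and 3 of 10, Gfap, Aqp4 and Slc1a2, passed the test upward. The 10 microglia markers summed to between 0.0229% and 0.0241% in ki/ki and between 0.0201% and 0.0224% in wt/wt mice, and 2 of 10, C1qa and C1qb, passed upward. Of 10 neuron, 10 oligodendrocyte and 10 endothelial markers none passed. The neuron markers summed to 0.578% ± 0.00589 in ki/ki and 0.588% ± 0.0107 in wt/wt mice (SD, n = 8). The exact two-sided permutation test of that sum gave an unadjusted p = 0.0402, and 8 of the 10 neuron markers were lower in ki/ki. Across all 80 pairs, no marker list passed a correlation with any of the RNAs (r between -0.673 and 0.417). With the genotype means removed, the r with marker lists lay between -0.683 and 0.428 and 0 of 50 pairs passed. The r with the astrocyte list then changed from -0.104 to -0.588 for Meg3 and from -0.171 to -0.611 for Miat, and that of Snhg14 with the microglia list from -0.0856 to -0.660.

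The genes whose deviations were most like each RNA were taken from the 13759 tested genes with a mean value above 50, as a description over the 16 mice with no test. Those of Meg3 were Snhg11, C130089K02Rik (r = 0.894) and Gm27000 (0.891), and those of Snhg11 were Meg3, Gm21955 (0.903) and Snhg14. Snhg14 was most like A330023F24Rik (0.925), a non-coding transcript, Srsf5 (0.915), a splicing factor of the SR family, and Snhg11. For Malat1 they were Snhg11, Meg3 and Gm10862 (0.847), and for Rian C130089K02Rik (0.853), Gm42993 (0.808) and Kcnq1ot1 (0.795), the imprinted antisense RNA of the Kcnq1 domain. Mirg came nearest to Gm37745 (0.872), Apex2 (0.848) and Gm42856 (0.834), and Neat1 to Gm47590 (0.925), Adgrb3 (0.892) and Clasp1 (0.834). Miat was most like Amn1 (0.876), Zmynd8 (0.827) and Pou3f1 (0.824), Rmst like Zfp408 (0.831), Col5a3 (0.831) and Kcnt1 (0.806), and Peg13 like Cd59a (0.853), Ganc (0.848) and Iars (0.845). The genes most like Meg3, Snhg11, Malat1 and Rian were, apart from the RNAs described here, non-coding or unclassified transcripts, and those most like Miat, Rmst and Peg13 were protein-coding genes. At the other end, Eef1a1, the translation elongation factor, was chosen after its values were seen and had r of -0.896 with Meg3, -0.897 with Snhg11 and -0.897 with Snhg14.

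By annotated class the same tilt was seen over many genes. The median r with Meg3 was 0.343 over 635 genes of the class TEC, transcripts still to be checked by experiment, 0.352 over 52 sense intronic RNAs, 0.239 over 168 antisense RNAs and 0.168 over 175 other lincRNAs. It was -0.102 over 11989 protein-coding genes and -0.392 over 76 ribosomal protein genes, beside -0.0732 over all 13749 other genes with a mean above 50. Not every non-coding class was positive: over 15 lncRNAs from bidirectional promoters the median was -0.118. Markers of several cell types lay lower, with medians of -0.526 over 10 astrocyte, -0.399 over 10 oligodendrocyte, -0.387 over 10 neuron and -0.361 over 9 microglia markers. Of these 9 microglia markers 33.3% had a positive r. The 10 endothelial markers, at -0.0761, lay near the median over all genes. For Snhg14 the medians were 0.386 over TEC genes and -0.486 over ribosomal protein genes, and for Malat1 0.298 and -0.330. With Peg13 the signs were turned: -0.209 over TEC genes and 0.239 over ribosomal protein genes. Genes are not independent replicates, and these medians describe 16 libraries.

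Neighbouring and partner genes were taken from fixed lists. Leaving out the 10 RNAs themselves, 0 of 11 tested genes of the Dlk1-Dio3 list passed in either direction and the median log2 fold change was -0.02, with means over the 16 mice of 797 for Yy1 and 791 for Wars. In the Prader-Willi list 0 of 15 passed (median -0.03). Ube3a, the ubiquitin ligase gene that Snhg14 runs through, lay at 4877 in ki/ki and 4946 in wt/wt mice, and Snrpn, which is made from the same paternal unit, at 3765 and 3850. Around Peg13, 0 of 7 passed (median 0.01), and Trappc9, its host, lay at 829 and 827, and Kcnk9, the potassium channel gene of the domain, at 1766 and 1757. Among the 9 tested genes near Malat1 and Neat1, 0 passed (median 0.03), with Ltbp3 at 582 and 566. Of 33 protein-coding genes from Dlk1 to 1 Mb beyond Tecpr2, Tecpr2 was the only one to pass.

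Protein partners of the nuclear bodies did not pass either. Of 22 paraspeckle genes 0 passed (median 0.00), among them Hnrnpk (3281 in ki/ki and 3285 in wt/wt mice), Matr3 (2625 and 2693) and Cpsf6 (2257 and 2264). Of 30 nuclear speckle genes 0 passed (median 0.00), among them Srrm2 (8206 and 8049), Son (5244 and 5289), Luc7l2 (3333 and 3378) and Pnisr (2320 and 2293). The median r of the 30 speckle genes was 0.340 with Malat1 and 0.332 with Snhg14, and that of the 22 paraspeckle genes was 0.150 with Neat1, 0.212 with Malat1 and 0.306 with Snhg14. Other imprinted genes gave 0 of 30 (median 0.00), with Peg3 at 8327 and 8275 and Kcnq1ot1 at 5808 and 5664. Other lncRNAs gave 0 of 22 (median 0.00), with 2900097C17Rik at 17460 and 17879, other snoRNA hosts 0 of 14 (median -0.01), with Gas5 at 428 and 433, and small structured RNAs 0 of 2, Rn7s6 and Rpph1. The lists had been matched by symbol, and listed genes without a match in the annotation were left out.

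Promoter letters were compared because Meg3 and Snhg11 moved together. RefSeq promoters (GRCm38.p6, from 250 bases before to 50 after the start) were at hand for 7 of the 10 genes. The letters TGACGTCA, the full cyclic AMP response element, were found in the Meg3 promoter, in 1 of the 8 promoters of these genes (Meg3 has 2 entries) and in 1.79% of 32851 promoters. TATAAA, searched on both strands, was also found in Meg3 alone among the 8 (13.6% of all promoters), and CCAAT in Meg3, Mirg and Snhg14 (37.4%). The Meg3 promoter, chr12:109540746-109541045 on the plus strand, is printed with these 3 motifs in capitals, and they begin 100 (CCAAT), 57 (TGACGTCA) and 25 (TATAAA) bases before the start:
Meg3: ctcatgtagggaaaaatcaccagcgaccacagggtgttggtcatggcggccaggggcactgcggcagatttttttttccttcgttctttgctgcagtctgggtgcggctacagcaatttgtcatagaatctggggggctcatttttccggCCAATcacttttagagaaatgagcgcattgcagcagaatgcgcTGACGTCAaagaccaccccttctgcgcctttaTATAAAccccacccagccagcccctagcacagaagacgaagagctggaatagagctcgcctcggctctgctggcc
None of the 3 motifs was in the Snhg11 promoter, chr2:158375463-158375762, also on the plus strand:
Snhg11: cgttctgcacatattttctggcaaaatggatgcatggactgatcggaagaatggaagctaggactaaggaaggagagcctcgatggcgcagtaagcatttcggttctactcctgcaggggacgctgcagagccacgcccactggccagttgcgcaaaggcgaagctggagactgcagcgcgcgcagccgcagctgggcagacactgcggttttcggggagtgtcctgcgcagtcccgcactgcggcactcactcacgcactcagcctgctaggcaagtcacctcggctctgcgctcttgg
A match is a description of these letters and not evidence of a bound factor.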

How the data were processed

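Total RNA of 16 whole brains was depleted of ribosomal RNA and sequenced as stranded libraries in pairs of 100 bases. Per the labels and methods, the authors trimmed reads with Trim Galore 0.6.10 and cutadapt 3.4, aligned them with STAR 2.7.10b to GRCm39, counted reads per gene with summarizeOverlaps and tested genes with DESeq2 1.40.2. The deposited values are a score per gene: whole numbers on a linear scale, scaled between mice in a way not given in the sources used here. Totals per mouse lay between 11964284 and 12252324. The depth that the steps in low values imply lay between 9.23 and 15.39 megareads, which limits the rarer RNAs.

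Genes with a sum above 16 and above 5 in at least 4 mice of a genotype were tested with limma 3.58.1 (R 4.3.3, trend and robust) on log2(value + 1), with Benjamini-Hochberg adjustment over all 23244. Fold changes are on the log2(value + 1) scale. Correlations used 100000 permutations within genotype (Python 3.11.15, scipy 1.17.1), adjusted over 45 pairs of RNAs and, with permutations across genotypes, over 80 pairs with library measures. Single RNAs were compared over all 12870 splits of the mice. The named genes were the 10 RNAs, the called and at most 4 most abundant other genes of each list, and the 3 most alike genes of each RNA. Genes that fall under this rule but are not reported here were left out. Members, lists and tests were chosen with earlier results of these data known. Symbols, lengths and coordinates come from GENCODE M21 (GRCm38). That the 8 mice of a genotype were separate animals is taken from the labels.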

Additional observations from a re-analysis of the deposited data

How the results depend on the processing

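None of the 10 RNAs passed under any of the 25 other settings, which were another pseudocount, filter, scaling or variance model, the replicate block, and each mouse left out in turn (lowest adjusted p 0.636, Neat1 under the block, limma). The fitted difference turned its sign for Snhg11 without ki/ki replicate 2 and without wt/wt replicates 3, 4 and 8 (lowest -0.00492, highest of all mice left out 0.0249), and for Rmst without ki/ki replicates 6 and 8 and wt/wt replicates 2 and 7 (from -0.0214 to 0.0191). The other 8 kept their direction, but with single mice left out the difference moved by over 1.5 times for 7 of them. It ran from 0.000879 (without wt/wt replicate 8) to 0.0408 (5) for Miat, from 0.00123 (5) to 0.0161 (4) for Peg13, from -0.0254 (3) to -0.00251 (7) for Rian, from 0.0126 (3) to 0.0657 (7) for Meg3, from 0.0284 (3) to 0.0724 (5) for Malat1 and from 0.0232 (6) to 0.0585 (7) for Snhg14, the numbers in parentheses being wt/wt replicates. Neat1 ran from 0.0391 to 0.0881, without ki/ki replicates 7 and 3. Counts over all genes were 20 of all genes with no filter on low values and 15 without the variance trend beside 31, and between 25 and 40 with a mouse left out.

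Whether the replicate numbers shared by the genotypes pair the mice, for example by batch, is not given in the labels and was not tested. The correlation of same-numbered deviations lay between -0.0395 and 0.151, and 3 of 8 ki/ki mice were most like their own number. With the replicate block, 46 genes and 0 of the 10 RNAs passed.

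Called pairs of RNAs numbered 22, with 25 after scaling each mouse to the same total, 26 after scaling to a total without abundant RNAs, 23 with the genotype means kept, and between 12 and 26 with a mouse left out. The last 2 kinds were added after the data had been seen, as were the ribosomal protein share, the depth factor, the library measures with genotype means removed and the neighbour lists without the 10 RNAs. The r of Rian with Rmst lay between -0.00292, without wt/wt replicate 7, and 0.345 with a mouse left out. Over the settings that kept all mice, the r of Peg13 lay between -0.574 and -0.329 with Snhg14 and between -0.489 and -0.266 with Meg3. Counting error limits Rmst, Mirg and Peg13. Reads that overlapping genes share were not split here.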
